A study of Mus musculus with 12 samples.

Results

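The late-onset *Sox17*-*Erg* genes were 62 of the 21793 protein-coding genes in the deposited bulk RNAseq table, which held 35727 genes in all. They were chosen by their measured values. L was the log2 of 1 plus CPM, and the CPM of a gene is its count divided by the total of its library and multiplied by 1000000. A gene was kept when its mean L at 4 weeks in *Sox17*-*Erg* samples exceeded that in control samples by at least 1.5, both *Sox17*-*Erg* libraries lay above both control libraries at 4 weeks, the same difference at Day 3 lay between -0.3 and 0.3, and the mean L of the control samples at 4 weeks was at least 1. The genes were therefore already present in control cultures, were at a like level in both arms at Day 3, and were apart by 4 weeks. The Day 3 and 4-week values are given as a description with no test, and the test compared the Day 7 libraries, which the choice did not use. Between time points, rose and fell describe mean values of L or CPM.

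The cells were neonatal mouse cardiac fibroblasts, pooled from the hearts of several pups aged 0 to 3 days, enriched for THY1 and depleted of PECAM1-positive cells. *Sox17*-*Erg* samples were infected with retroviruses carrying *Sox17* and *Erg*, from a pMX vector, to make induced endothelial cells (iECs), and control samples carried the pMX control in their place. Both arms were kept in EGM2, an endothelial growth medium, and 12 libraries were made, 2 for each arm at each of Day 3, Day 7 and 4 weeks. The labels do not say which libraries came from separate isolations, so p-values measure the spread between these libraries, part of which may be technical. Each library is RNA of a whole culture, in which fewer cells of a type and less RNA per cell cannot be told apart.

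*Sox17* encodes an HMG-box transcription factor that is active in arterial endothelium, and *Erg* an ETS factor that maintains endothelial identity and junctions. Endothelial cells line vessels on a basement membrane of laminins, collagens and heparan sulfate proteoglycans, store von Willebrand factor for platelet binding, and respond to ligands of the VEGF family and to flow. The late-onset genes held members of each of these systems beside many cytoskeletal, transport and signaling genes that are not specific to endothelium.

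Libraries held 19011635 to 41240449 counts on genes. *Sox17* lay between 411 and 1012 CPM in the 6 *Sox17*-*Erg* libraries and at most at 0.400 CPM in the 6 control libraries, and *Erg* lay between 17.1 and 63.6 CPM against at most 2.18. Of 10 endothelial markers, 5 of the 9 tested were higher in *Sox17*-*Erg* samples at Day 7 by edgeR, and their summed level was 739.6 and 506 CPM in *Sox17*-*Erg* against 162 and 148 CPM in control libraries. *Cldn5*, a defining claudin of endothelial junctions, stayed at or under 0.445 CPM in every library. Of 10 fibroblast markers 1 was higher and 3 lower at Day 7 (median log2 fold change -0.59). Their sum, 31800 and 35510 CPM in *Sox17*-*Erg* against 25930 and 32120 CPM in control libraries, was mostly *Col1a1* and *Col1a2*. *Dcn* was 101 and 283 against 1233 and 2183 CPM and *Lum* 20.3 and 66.97 against 343 and 529.6 CPM, and *Col3a1*, *Pdgfra* and *Tcf21* also lay below control. *Postn*, at 3873 and 5887 against 739 and 783 CPM, lay above control, as did *Col1a1* and *Col1a2*, and *Ddr2* and *Thy1* overlapped. Of 6 lymphatic markers tested, 2 were higher and 1 lower at Day 7 (median log2 fold change -0.61). At 4 weeks *Prox1* was 37.5 and 27.01 against 0.849 and 1.49 CPM, and *Reln* was also above control. *Flt4* lay below control, at 47.3 and 38.4 against 55.2 and 62.7 CPM, and *Pdpn* and *Lyve1* overlapped. Of 10 mesothelial markers 5 were lower at Day 7 by edgeR, at a summed 337 and 247 CPM in *Sox17*-*Erg* against 1170 and 569 CPM in control libraries, and at 268 and 187 against 1464 and 972 CPM at 4 weeks. The part of mesothelial cells in the values below was not tested. Macrophage markers were present in all libraries, and control replicate 2 at Day 7 held more *Cdh5* (7.81 CPM) than control replicate 1 (0.239 CPM).

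The choice required a difference between the arms near 0 at Day 3 and of at least 1.5 at 4 weeks, so growth between these was fixed. Only the Day 7 values were free of the choice, and shares of the 4-week difference rest on a value chosen to be large. The median difference in L, *Sox17*-*Erg* minus control, moved from 0.07 at Day 3 through 1.04 at Day 7 to 1.86 at 4 weeks, where it ran from 1.53 to 4.10. At Day 3, 40 of the 62 genes were on the positive side of 0, and at Day 7, 60 were. The median gene had reached 52.2% of its 4-week difference by Day 7. In 32 genes the Day 7 difference was at least 50% of that at 4 weeks, in 14 it was under 25%, and in 0 genes it was above the 4-week difference.

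**Figure D1:**
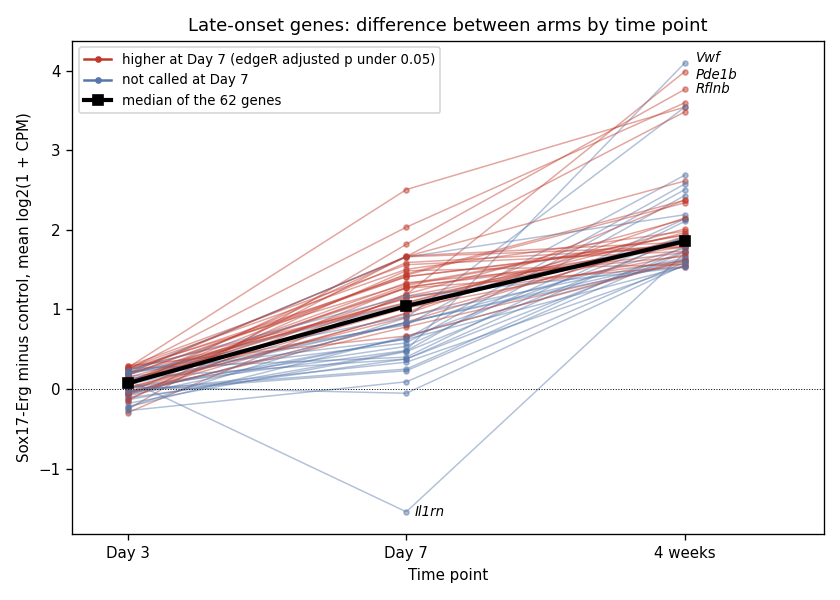
Difference in mean log2(1 + CPM) between *Sox17*-*Erg* and control samples at Day 3, Day 7 and 4 weeks, with 1 line for each of the 62 genes, red for the 35 called higher at Day 7 and blue for the other 27, and the median in black. The median passes from 0.07 to 1.04 to 1.86, and *Il1rn* alone lies far under 0 at Day 7. The Day 3 and 4-week points were used to choose the genes.

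The thresholds cut through a continuous range. *Junb* and *Nacad* entered with 4-week differences of 1.53 and 1.54, while *Myl9* and *Lrrc8c*, at 1.49 and 1.49, stayed outside. *Vegfa* and *Slc6a6* had Day 3 differences of 0.29 and 0.28, while *Scube3* and *C130074G19Rik*, at 0.32 and 0.33, did not enter. On the negative side *Prkar1b* and *Ntn1* entered at -0.30 and -0.27, and *Itgb3* and *Fn1* fell outside at -0.31 and -0.32. *Il1rn* and *Fgfr3* had control means of 1.02 and 1.04 at 4 weeks, and *Tmem51* and *Irx2* were just under the floor at 0.99 and 0.97. Without the Day 3 window 396 genes would have been kept, and without the floor 117. Leaving out 1 of the 8 libraries used gave 54 to 80 genes, of which 44 to 57 were among the 62, and 18 of the 62 were kept whichever library was left out. Without control replicate 2 of Day 3 the Day 3 difference was -0.63 for *Lama5*, -0.70 for *Rflnb*, 0.40 for *Fos* and 0.44 for *Junb*. It was 0.69 for *Chac1* without control replicate 1, and all of these values lie outside the window.

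The 4-week gap arose in different ways, as the plot of the change in each arm shows. From Day 3 to 4 weeks L rose in the *Sox17*-*Erg* samples in 55 genes, with a median change of 1.23, and the control samples changed by a median of -0.82, with 9 genes on the positive side. In 26 genes L went up by over 0.5 in *Sox17*-*Erg* and down by over 0.5 in control samples, among them *Pde1b*, *Rflnb*, *Pgf*, *Lama5*, *Col18a1*, *Synj2*, *Plxnd1*, *Klf4* and *Aqp1*. Another 18 went up by at least 1 in *Sox17*-*Erg* with the control within 0.5 of its start, such as *Slc45a4*, *Fgfr3*, *Tbx3*, *Vegfa* and *Agrn*. In 10 genes the *Sox17*-*Erg* level stayed within 0.5 while the control fell by at least 1, and these included *Cd109*, *Synpo*, *Tyro3* and *Igf2r*, and by its mean *Sfrp2*, whose *Sox17*-*Erg* libraries of Day 3 differed over 4-fold. Both arms fell in *Cspg4*, *Vcan*, *Olfml2b* and *Myocd*, the control further, and both rose in 3 genes, among them *Vwf* and *Htr1b*. *Slc6a6* met none of these descriptions. The fall in control was the larger of both changes in 23 genes and the rise in *Sox17*-*Erg* in 39.

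**Figure D2:**
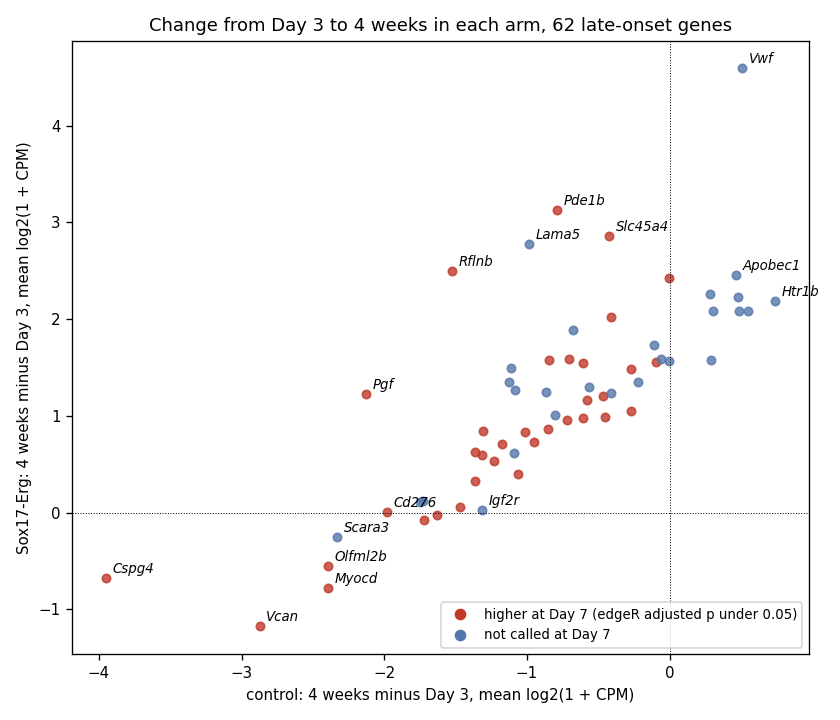
Change in mean log2(1 + CPM) from Day 3 to 4 weeks in control samples (x axis) and in *Sox17*-*Erg* samples (y axis), with 1 point for each of the 62 genes, red for genes called higher at Day 7. *Vwf* rose by 4.59 in *Sox17*-*Erg* samples, while *Cspg4* fell by 3.95 in control samples and by 0.68 in *Sox17*-*Erg* samples. Both axes use libraries that chose the genes.

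The Day 7 arms were compared in 1 edgeR quasi-likelihood fit to all 12 libraries with Benjamini-Hochberg adjustment over the 15506 genes tested. All 62 genes were tested, and 35 of them, 56.5%, were higher in *Sox17*-*Erg* samples at an adjusted p under 0.05, while 9.48% of all genes tested were higher. The difference tested was that of the Day 7 libraries, but the spread was estimated over all 12, and 8 of these had served to choose the genes. In an edgeR fit of the 4 Day 7 libraries only, which shares no library with the choice, 22 of the 62 genes, 35.5%, were higher, against 4.18% of all genes tested there. In the fit to all libraries none was called lower by edgeR, against 7.93% of all genes, although 1 gene, *Il1rn*, was lower at an unadjusted p under 0.05 and 1 by DESeq2. The median log2 fold change of the 62 genes was 1.17, with an SD of 0.14 between the values of the same-numbered pairs of libraries, against 0.01 over all genes tested. Positive values were found in 59 of the 62 genes and in 50.6% of all genes tested. In 52 genes both *Sox17*-*Erg* libraries lay above both control libraries, which held for 27.3% of all genes, and in the other 10 the libraries overlapped. With a replicate block within time points 46 of the 62 genes were called higher, where 13.8% of all genes were. Of the 11 genes gained, *Lama5*, *Klf4*, *Chac1*, *Ppp1r3f* and *Htr1b* were also called with the replicate block over all libraries, and *Col18a1*, *Ttc9*, *Plxnd1*, *Igf2r*, *Fos* and *Junb* were not. The 35 called genes had log2 fold changes of 0.69 to 2.56. Of these, 21 stayed called whichever of the 12 libraries was left out, and the count fell to 22 without *Sox17*-*Erg* replicate 1 of Day 7.

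**Figure D3:**
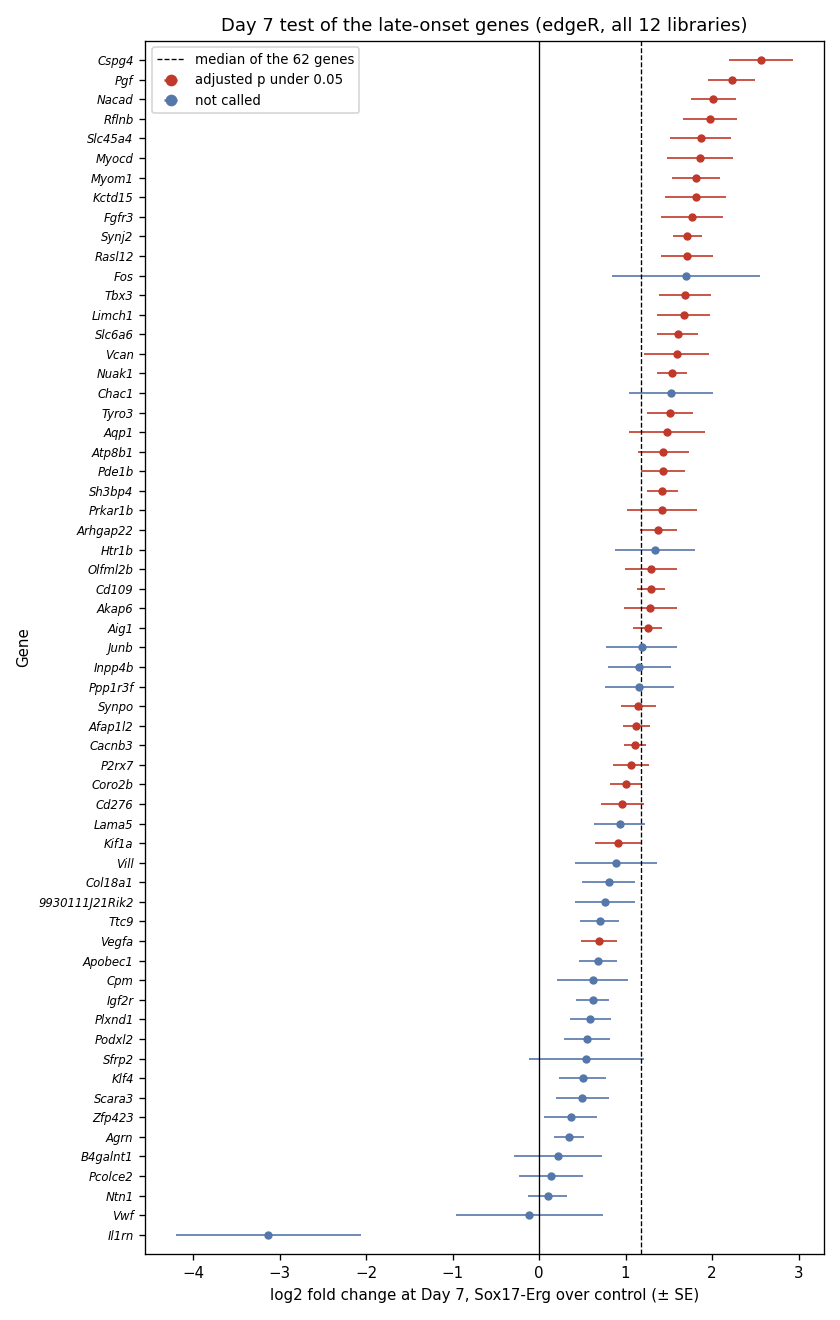
log2 fold change of *Sox17*-*Erg* over control at Day 7 (x axis) for each of 61 of the 62 genes (y axis), as fitted by edgeR, with a standard error derived from the F statistic of the test, red where the adjusted p was under 0.05. *Cspg4* is highest at 2.56, the dashed median of all 62 is at 1.17, and *Il1rn* is lowest at -3.13 with the widest error bar.

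Promoters were read for the 50 genes that matched the RefSeq promoter table (GRCm38.p6), in 74 windows of 250 bases before to 50 bases after an annotated start. Windows were searched on both strands for ACAAT, the core of SOX sites, AGGAAG, an ETS site of the ERG type, AACAGGAA, a composite FOX and ETS site, and TATAAA. The letters of the composite can overlap those of the ETS site. ACAAT was in 18.9% of the windows of the late-onset genes, in 21.4% of the 14282 windows of genes tested at Day 7 and in 31.02% of all 32851 windows. AGGAAG was in 37.8%, 33.2% and 35.4% of these windows, and TATAAA in 8.11%, 8.02% and 13.6%. Windows of 1 gene can overlap, and counted by gene AGGAAG was in 25 of the 50 late-onset genes, in 37.3% of tested genes and in 38.4% of all genes, and ACAAT in 12 of the 50, 24.7% and 34.4%. AACAGGAA was in 0 of the 74 windows and in 2.24% of those of tested genes. Windows of the late-onset genes had a median GC content of 63.5%, against 60.3% for windows of genes tested at Day 7 and 52.7% for all windows. A match gives only that these letters occur there, and no binding was measured.

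The 250 bases before the start are printed for 5 genes whose windows hold a motif, to show where the motifs lie, among them the window that holds both. The windows of *Rflnb*, *Pgf*, *Lama5* and *Klf4* held neither the SOX core nor the ETS-type motif. *Synj2*, the gene with the smallest Day 7 p, held AGGAAG 3 times, before an internal start of the gene. *Plxnd1* held it 2 times and *Aqp1* once. *Cspg4* held the SOX core on the opposite strand, and *Htr1b* was the only gene with both motifs in 1 window, which is 1.35% of the windows of the late-onset genes, against 7.11% of those of tested genes and 11.1% of all windows. Capitals mark the ETS-type motif and the SOX core, or their reverse complements, and each sequence is written 5′ to 3′ on the strand of the gene.
Synj2, chr17:5975330-5975579, strand +: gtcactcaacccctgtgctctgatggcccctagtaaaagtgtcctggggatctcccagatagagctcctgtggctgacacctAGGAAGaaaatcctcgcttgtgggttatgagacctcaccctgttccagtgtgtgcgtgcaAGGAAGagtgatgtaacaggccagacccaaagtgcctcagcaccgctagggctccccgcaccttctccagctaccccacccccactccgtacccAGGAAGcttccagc
Plxnd1, chr6:115995006-115995255, strand -: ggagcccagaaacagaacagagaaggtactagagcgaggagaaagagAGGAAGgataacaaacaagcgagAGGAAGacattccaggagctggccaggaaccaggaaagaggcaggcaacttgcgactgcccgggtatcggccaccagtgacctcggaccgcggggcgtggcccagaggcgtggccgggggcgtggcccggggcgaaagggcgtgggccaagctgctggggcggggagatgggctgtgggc
Aqp1, chr6:55336049-55336298, strand +: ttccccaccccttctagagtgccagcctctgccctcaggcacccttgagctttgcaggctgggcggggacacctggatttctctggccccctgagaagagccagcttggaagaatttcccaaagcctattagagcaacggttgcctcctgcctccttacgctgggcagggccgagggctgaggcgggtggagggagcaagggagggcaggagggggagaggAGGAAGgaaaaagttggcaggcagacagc
Cspg4, chr9:56864854-56865103, strand +: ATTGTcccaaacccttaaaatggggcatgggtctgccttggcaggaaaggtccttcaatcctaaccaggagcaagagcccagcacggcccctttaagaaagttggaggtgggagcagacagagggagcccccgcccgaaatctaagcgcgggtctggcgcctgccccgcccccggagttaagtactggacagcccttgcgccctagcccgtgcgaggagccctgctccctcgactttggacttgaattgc
Htr1b, chr9:81633833-81634082, strand -: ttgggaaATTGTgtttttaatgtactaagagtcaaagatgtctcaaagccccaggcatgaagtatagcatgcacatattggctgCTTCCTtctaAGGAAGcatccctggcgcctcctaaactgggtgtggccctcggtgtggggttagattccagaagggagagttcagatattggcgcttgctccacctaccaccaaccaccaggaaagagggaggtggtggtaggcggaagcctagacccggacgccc

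Among 6 genes of secreted factors, 2 were higher at Day 7, *Pgf* and *Vegfa*. *Vwf* (ENSMUSG00000001930, chromosome 6, 125546774 to 125686679, in GRCm38 as for the positions given next), the platelet-binding glycoprotein of endothelial storage granules, had the largest 4-week difference, 4.10 in L. Its CPM in both control libraries was 0.886 and 2.18 (Day 3), 0.838 and 10.99 (Day 7) and 1.99 and 3.07 (4 weeks). In *Sox17*-*Erg* libraries it was 0.999 and 2.05 (Day 3), 4.89 and 6.33 (Day 7) and 66.3 and 51.8 (4 weeks). The arms overlapped at Day 3 and at Day 7 and were far apart at 4 weeks. Control replicate 2 of Day 3 held more *Vwf*, *Cdh5* (13.8 against 0.923 CPM) and *Tie1* (4.58 against 0.960 CPM) than replicate 1. Of the 10 endothelial markers, *Flt1* (83.6 against 122 CPM), *Kdr* and *Tek* were lower in replicate 2 and the others higher, and their sum was 140 against 151 CPM. Without control replicate 2 the Day 3 difference of *Vwf* was 0.39 in L, outside the window of 0.3. It was also outside, at -0.36 and 0.32, without control replicate 1 and without *Sox17*-*Erg* replicate 1 of Day 3. The Day 7 value was carried by 1 control library, replicate 2, which lay above both *Sox17*-*Erg* libraries and also held more *Cdh5* and *Tie1* (4.78 CPM against 0.160) than replicate 1. In this library *Flt1* (104 against 140.5 CPM), *Kdr* and *Esam* were lower than in replicate 1 and the other endothelial markers higher, and the sum was 148 against 162 CPM. At Day 7 the log2 fold change was -0.11 ± 0.85 SE with this library (edgeR adjusted p = 0.95) and 2.79 without it (edgeR adjusted p = 0.0377). The part of endothelial cells of these control libraries in the *Vwf* values was not tested.

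*Pgf* (ENSMUSG00000004791, chromosome 12, 85166635 to 85177790), placental growth factor, is a ligand of FLT1. Its CPM fell in control libraries, with 13.3 and 12.1 (Day 3), 6.75 and 5.94 (Day 7) and 2.64 and 1.70 (4 weeks). In *Sox17*-*Erg* libraries it was 16.8 and 13.8 (Day 3), 24.4 and 34.5 (Day 7) and 43.6 and 31.2 (4 weeks). The arms were well apart in both later pairs, and *Pgf* was 4.68-fold higher at Day 7 (log2 fold change 2.23 ± 0.27 SE, edgeR adjusted p = 0.000925). *Vegfa*, the main ligand of KDR, was 61.5 and 61.7 (Day 3), 82.7 and 75.9 (Day 7) and 154 and 108 (4 weeks) CPM in *Sox17*-*Erg* libraries and 45.6 and 55.3 (Day 3), 52.2 and 47.1 (Day 7) and 37.2 and 46.2 (4 weeks) CPM in control libraries. Its change was smaller (log2 fold change 0.69 ± 0.21 SE, edgeR adjusted p = 0.0482), and it was called in 2 of 12 fits that each left out 1 library and not with the replicate block over all libraries (edgeR adjusted p = 0.0573).

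Other secreted factors were not called at Day 7. *Ntn1*, the guidance cue netrin-1, overlapped at Day 7, at 7.105 and 4.78 CPM in control and 6.03 and 6.55 in *Sox17*-*Erg* libraries (log2 fold change 0.10 ± 0.23 SE, edgeR adjusted p = 0.79), and reached 13.3 and 15.2 against 3.42 and 4.77 CPM at 4 weeks. *Sfrp2*, a secreted binder of Wnt ligands, was 14.8 and 3.49 CPM in *Sox17*-*Erg* and 7.24 and 5.03 CPM in control libraries of Day 3, and its Day 3 difference in L was -0.65 without *Sox17*-*Erg* replicate 1 and 1.16 without replicate 2, outside the window of 0.3. It had 4-week values of 9.12 and 7.24 against 2.01 and 0.497 CPM and overlapped at Day 7 (log2 fold change 0.54 ± 0.67 SE, edgeR adjusted p = 0.614). *Il1rn*, the interleukin-1 receptor antagonist, stood at 14.8 and 0.699 CPM in the control libraries of Day 7 and at 1.19 and 0.439 in *Sox17*-*Erg*. Control replicate 1 alone was high. The log2 fold change was -3.13 ± 1.07 with an edgeR adjusted p of 0.0746, 0.0332 with the replicate block within time points, and turned to 0.20 without that library. At 4 weeks *Il1rn* was 3.87 and 7.96 against 1.14 and 0.912 CPM. The 10 macrophage markers, genes of a cell type that also makes *Il1rn*, summed to 951 and 1272 CPM in the control and 278 and 455 CPM in the *Sox17*-*Erg* libraries of Day 7, none at 0, and to 46.3 and 441 against 68.0 and 374.5 CPM at 4 weeks. Their part in the *Il1rn* values was not tested.

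**Figure D4:**
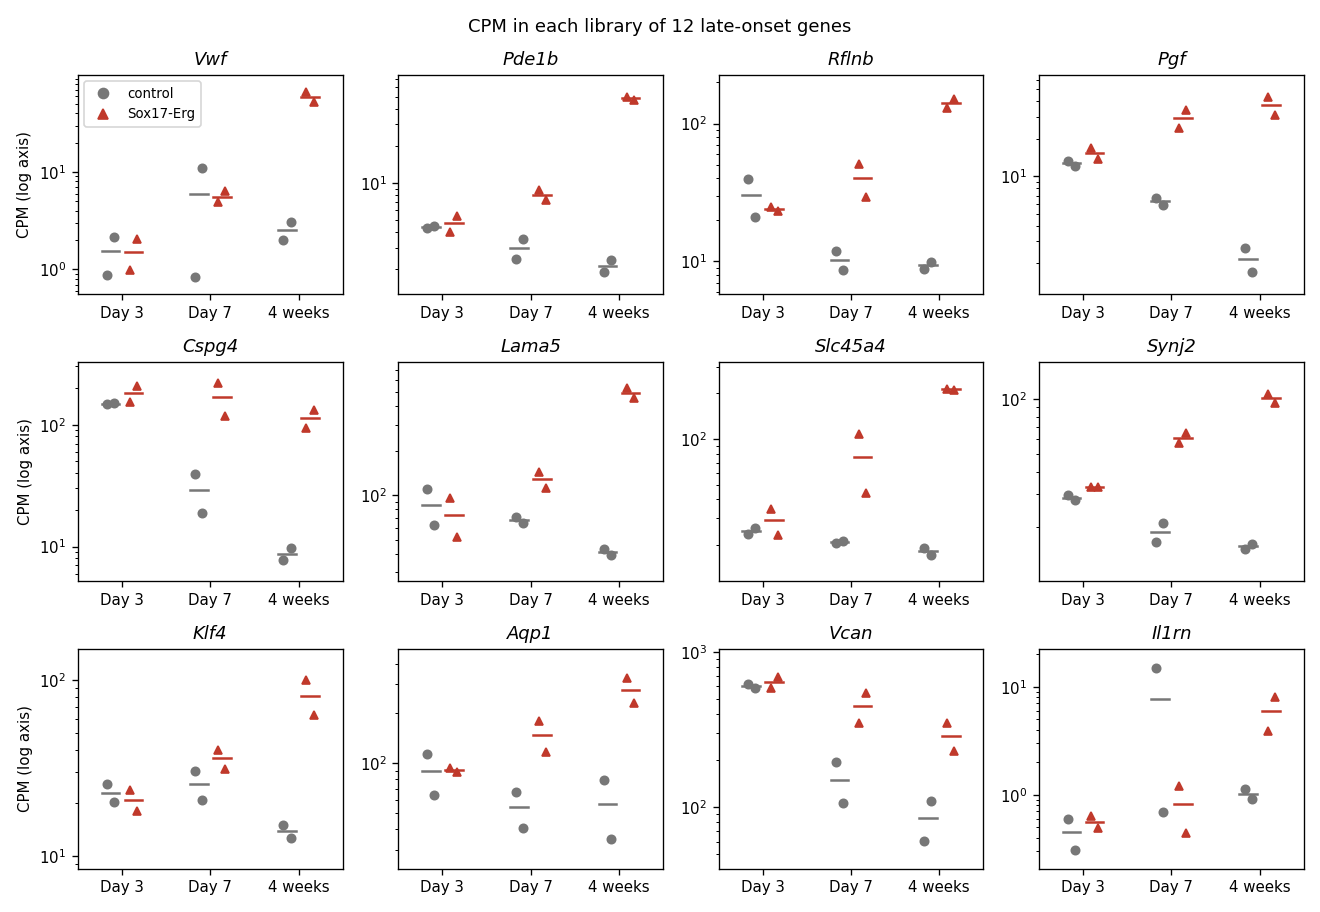
CPM on a log axis in each of the 12 libraries for 12 of the genes, grey circles for control and red triangles for *Sox17*-*Erg*, with a bar at the mean of each pair. At 4 weeks the *Sox17*-*Erg* libraries lie above the control libraries in each panel, as the choice required. *Pde1b* goes up late, *Cspg4* and *Vcan* fall in control, and single control libraries stand high at Day 7 in *Vwf* and *Il1rn*.

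Of 7 genes of the matrix and basement membrane, 3 were higher at Day 7, and 5 with the replicate block within time points. *Lama5* (ENSMUSG00000015647, chromosome 2, 180176373 to 180225859) encodes the laminin α5 chain of vessel basement membranes. Its control libraries were at 109.6 and 62.5 (Day 3), 70.8 and 64.97 (Day 7) and 43.4 and 39.1 (4 weeks) CPM. The *Sox17*-*Erg* libraries were at 95.4 and 52.2 (Day 3), 144 and 112 (Day 7) and 532 and 452 (4 weeks) CPM, so that the level fell in control and rose in *Sox17*-*Erg*, to 4-week means of 41.3 ± 3.03 and 492 ± 56.04 CPM (SD, n = 2). The Day 7 libraries did not overlap (log2 fold change 0.93 ± 0.29 SE, edgeR adjusted p = 0.0575), and the replicate block within time points gave an adjusted p of 0.00204. *Col18a1*, the collagen XVIII chain that yields endostatin, was 307 and 352 CPM against 48.7 and 51.9 at 4 weeks. It overlapped at Day 7, at 292 and 168 against 181 and 88.3 CPM (log2 fold change 0.81 ± 0.31 SE, edgeR adjusted p = 0.103; 0.00166 with the block). *Agrn*, the heparan sulfate proteoglycan agrin, was 422 and 342 against 136 and 123 CPM at 4 weeks and 261 and 256 against 236 and 176 at Day 7 (log2 fold change 0.34 ± 0.17 SE, edgeR adjusted p = 0.206).

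*Cspg4* (ENSMUSG00000032911, chromosome 9, 56865033 to 56899870), the NG2 proteoglycan known from pericytes, had the largest Day 7 increase of the 62 genes. Control libraries held 148 and 149.8 (Day 3), 39.04 and 19.03 (Day 7) and 7.78 and 9.701 (4 weeks) CPM. In *Sox17*-*Erg* libraries the values were 154 and 209 (Day 3), 218 and 117 (Day 7) and 94.7 and 132 (4 weeks) CPM. The level fell little with the factors and steeply without them, and was 5.91-fold higher at Day 7 (log2 fold change 2.56 ± 0.37 SE, edgeR adjusted p = 0.00219). *Vcan*, the large proteoglycan versican, was among the most abundant of the genes at Day 3, at 619 and 588 CPM in control and 589 and 694 in *Sox17*-*Erg*. It fell in both arms, to 60.3 and 109.9 and 347 and 229.6 CPM, and was higher at Day 7 (log2 fold change 1.59 ± 0.37 SE, edgeR adjusted p = 0.0195). *Olfml2b*, which was outside the naming rule like *Pcolce2*, was also higher (log2 fold change 1.29 ± 0.30 SE, edgeR adjusted p = 0.0194). *Pcolce2*, an enhancer of procollagen processing, was 54.5 and 57.3 against 14.4 and 16.6 CPM at 4 weeks and overlapped at Day 7.

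Markers of smooth muscle did not all move one way beside *Cspg4* and *Myocd*, the coactivator of smooth and cardiac muscle genes. *Myocd* was 17.9 and 12.3 (Day 3), 3.99 and 2.33 (Day 7) and 1.697 and 2.36 (4 weeks) CPM in control and 15.5 and 13.2 (Day 3), 15.4 and 6.94 (Day 7) and 7.05 and 8.84 (4 weeks) CPM in *Sox17*-*Erg* libraries, and higher at Day 7 (log2 fold change 1.86 ± 0.38 SE, edgeR adjusted p = 0.011). Over 10 smooth muscle markers, *Myocd* among them, 5 were higher and 2 lower at Day 7, and their summed level was 4258 and 1966 CPM in *Sox17*-*Erg* against 1781 and 938 CPM in control libraries. At 4 weeks *Myh11*, smooth muscle myosin, was 271 and 241 against 54.1 and 36.03 CPM in control, whereas *Des* and *Mylk* lay below control, at 5.56 and 17.9 against 32.98 and 49.9 CPM and 142 and 182 against 528 and 613 CPM. No marker of the list was at 0 in any library. The part of such cells in the values was not tested.

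Of 10 receptors and surface proteins, 4 were higher at Day 7, and 7 with the replicate block within time points. *Plxnd1*, the semaphorin receptor of developing vessels whose promoter is printed above, was 54.5 and 73.1 (Day 3), 76.6 and 76.6 (Day 7) and 146 and 160.2 (4 weeks) CPM in *Sox17*-*Erg* libraries and 45.7 and 70.1 (Day 3), 47.3 and 54.8 (Day 7) and 26.9 and 25.5 (4 weeks) CPM in control. The Day 7 libraries did not overlap but the change was small (log2 fold change 0.59 ± 0.24 SE, edgeR adjusted p = 0.118), and with the block the adjusted p was 0.00852. *Fgfr3*, a receptor of fibroblast growth factors, was low throughout, and 10.4 and 9.005 against 0.994 and 1.12 CPM at 4 weeks (log2 fold change 1.77 ± 0.36 SE, edgeR adjusted p = 0.0109 at Day 7). *Tyro3*, a receptor tyrosine kinase of the TAM family, kept its level in *Sox17*-*Erg* libraries, at 25.2 and 20.2 CPM at Day 3 and 19.6 and 25.1 at 4 weeks, while control went from 21.5 and 16.8 to 3.93 and 7.504 (log2 fold change 1.52 ± 0.27 SE, edgeR adjusted p = 0.00538 at Day 7). *Cd109*, a membrane-anchored protein that binds TGF-β receptors, went from 282 and 305 to 112 and 115 CPM in control and from 292 and 339 to 406 and 382 CPM in *Sox17*-*Erg* (log2 fold change 1.29 ± 0.17 SE, edgeR adjusted p = 0.00125 at Day 7).

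*Igf2r*, the mannose-6-phosphate receptor that clears IGF2, had the highest *Sox17*-*Erg* CPM of the 62 genes at 4 weeks, 577 and 571 against 219 and 176 in control. It was 594 and 618 against 346 and 446 CPM at Day 7 and narrowly missed the threshold (log2 fold change 0.62 ± 0.19 SE, edgeR adjusted p = 0.0536; 0.0156 with the block). Per exon base the order differed. *Junb* had the highest level of the 62 genes in *Sox17*-*Erg* samples at 4 weeks, with 147 RPKM (CPM per kilobase of exon), then *Aqp1* with 106, and *Igf2r* had 61.7. Among genes outside the naming rule, *Cd276*, an immune checkpoint ligand, was called (log2 fold change 0.96 ± 0.25 SE, edgeR adjusted p = 0.0289) and *Htr1b*, a serotonin receptor, and *Scara3* were not, with log2 fold changes of 1.34 ± 0.46 and 0.50 ± 0.30. *Podxl2* and *Cpm* had 0.55 ± 0.26 and 0.62 ± 0.41 at Day 7.

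All 6 channel and transporter genes were higher at Day 7, in a small group set after the values were seen. *Aqp1*, the water channel of endothelium, was 93.2 and 88.4 (Day 3), 179 and 117 (Day 7) and 326 and 231 (4 weeks) CPM in *Sox17*-*Erg* libraries. In control libraries it was 114 and 64.5 (Day 3), 67.2 and 40.8 (Day 7) and 78.7 and 34.6 (4 weeks) CPM, with replicates more than 2-fold apart at 4 weeks. It was called at Day 7 (log2 fold change 1.48 ± 0.44 SE, edgeR adjusted p = 0.0474) and in 2 of the 12 fits that left out 1 library. *Slc45a4*, a solute carrier, was 23.5 and 25.9 (Day 3), 20.8 and 21.3 (Day 7) and 19.1 and 17.3 (4 weeks) CPM in control and 34.8 and 23.3 (Day 3), 108 and 43.99 (Day 7) and 215 and 211 (4 weeks) CPM in *Sox17*-*Erg* libraries. At Day 7 both *Sox17*-*Erg* libraries were above both controls, although they differed more than 2-fold from each other (log2 fold change 1.87 ± 0.35 SE, edgeR adjusted p = 0.00765). *Slc6a6*, the taurine transporter, was 375 and 275 against 118 and 99.2 CPM at Day 7 (log2 fold change 1.60 ± 0.23 SE, edgeR adjusted p = 0.00218). *Cacnb3*, a regulatory subunit of voltage-gated calcium channels, had close replicates, at 103 and 101 against 50.1 and 45.4 CPM (log2 fold change 1.11 ± 0.13 SE, edgeR adjusted p = 0.00077). *P2rx7*, an ATP-gated cation channel, was 12.3 and 12.1 against 5.39 and 6.37 CPM (log2 fold change 1.06 ± 0.21 SE, edgeR adjusted p = 0.00863). *Atp8b1*, a phospholipid flippase outside the naming rule, was higher as well (log2 fold change 1.44 ± 0.30).

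Signaling enzymes and adaptors held 11 of the genes, and 9 were higher at Day 7. *Pde1b* (ENSMUSG00000022489, chromosome 15, 103503034 to 103530052), a cyclic nucleotide phosphodiesterase that calcium and calmodulin activate, was 4.36 and 4.49 (Day 3), 2.43 and 3.53 (Day 7) and 1.89 and 2.405 (4 weeks) CPM in control. In *Sox17*-*Erg* libraries it was 4.05 and 5.42 (Day 3), 8.71 and 7.29 (Day 7) and 50.2 and 47.3 (4 weeks) CPM. A 2.697-fold difference at Day 7 (log2 fold change 1.43 ± 0.25 SE, edgeR adjusted p = 0.00557) thus preceded a 4-week mean of 48.8 ± 2.07 against 2.15 ± 0.363 CPM (SD, n = 2). *Synj2* (ENSMUSG00000023805, chromosome 17, 5941280 to 6044290), a phosphoinositide phosphatase of membrane traffic with 3 ETS-type motifs in the window printed above, was 32.8 and 33.04 (Day 3), 57.2 and 65.4 (Day 7) and 106 and 95.1 (4 weeks) CPM in *Sox17*-*Erg* and 29.7 and 27.8 (Day 3), 16.4 and 21.05 (Day 7) and 15.1 and 16.1 (4 weeks) CPM in control libraries. It moved apart in both directions, up with the factors and down without, and had the smallest p of the 62 genes (log2 fold change 1.71 ± 0.17 SE, edgeR adjusted p = 0.000318). *Nuak1*, a kinase related to AMPK, was abundant, at 239 and 192 against 83.4 and 67.1 CPM (log2 fold change 1.54 ± 0.17 SE, edgeR adjusted p = 0.000666).

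*Afap1l2*, a kinase adaptor, had nearly equal replicates at Day 7, 60.97 and 60.7 CPM in *Sox17*-*Erg* and 28.1 and 28.1 in control (log2 fold change 1.13 ± 0.15 SE, edgeR adjusted p = 0.00166). *Sh3bp4*, an adaptor of endocytosis, was 32.03 and 28.04 against 12.1 and 10.6 CPM (log2 fold change 1.43 ± 0.18 SE, edgeR adjusted p = 0.0012). *Rasl12*, a small GTPase of the Ras family, was 13.7 and 9.05 against 3.43 and 3.57 CPM (log2 fold change 1.71 ± 0.30 SE, edgeR adjusted p = 0.00548). The arms were apart in these 3 genes beyond the spread of their replicates. *Prkar1b*, a regulatory subunit of protein kinase A, was 10.7 and 7.38 against 4.43 and 2.45 CPM (log2 fold change 1.42 ± 0.41 SE, edgeR adjusted p = 0.0412), called in 5 of the 12 fits that left out 1 library, and 8.27% of its 31-base words also occur in the overlapping gene *Gm15672*. *Akap6*, an anchor of protein kinase A, and *Arhgap22*, a GTPase-activating protein, both outside the naming rule, were called with log2 fold changes of 1.29 ± 0.30 and 1.38 ± 0.21, and *Inpp4b*, a phosphoinositide phosphatase, and *Ppp1r3f*, also outside it, were not, with 1.16 ± 0.36 and 1.16 ± 0.40.

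Cytoskeletal genes were higher at Day 7 in 6 of 7 cases. *Rflnb* (ENSMUSG00000020846, chromosome 11, 76019194 to 76027782), a filamin-binding protein, was 39.5 and 21 (Day 3), 11.97 and 8.70 (Day 7) and 8.85 and 9.91 (4 weeks) CPM in control and 24.9 and 23.1 (Day 3), 51.01 and 29.1 (Day 7) and 130.0 and 150.3 (4 weeks) CPM in *Sox17*-*Erg* libraries. It was 3.95-fold higher at Day 7 (log2 fold change 1.98 ± 0.31 SE, edgeR adjusted p = 0.0033), with all 4 libraries apart by arm. *Synpo*, an actin-associated protein and the third most abundant of the genes at 4 weeks by CPM, was 521 and 431 against 141 and 169.6 CPM and was kept near its Day 3 level of 416 and 496 CPM in *Sox17*-*Erg* libraries (log2 fold change 1.15 ± 0.20 SE, edgeR adjusted p = 0.00575 at Day 7). The others were outside the naming rule. *Myom1*, a myosin-binding protein of the sarcomere, *Limch1*, the coronin *Coro2b* and the kinesin *Kif1a* were called with log2 fold changes of 1.81 ± 0.28, 1.67 ± 0.31, 1.01 ± 0.19 and 0.91 ± 0.27, and *Vill* was not, with 0.89 ± 0.48. *Kif1a* was called narrowly (edgeR adjusted p = 0.0473), in 3 of the 12 fits that left out 1 library, and not with the replicate block over all libraries (adjusted p = 0.056).

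Of 7 transcription regulators, *Myocd* and *Tbx3* were higher at Day 7. *Tbx3*, a T-box factor of heart and limb development, was 7.63 and 9.36 against 3.67 and 1.71 CPM (log2 fold change 1.68 ± 0.30 SE, edgeR adjusted p = 0.00575) and 10.2 and 11.9 against 2.55 and 2.24 at 4 weeks. *Klf4*, a zinc finger factor that flow induces in endothelium, was 99.4 and 62.8 against 15.1 and 12.7 CPM at 4 weeks, with 1 *Sox17*-*Erg* library well above the other. At Day 7 it was 40.2 and 31.3 against 30.4 and 20.9 CPM (log2 fold change 0.51 ± 0.27 SE, edgeR adjusted p = 0.241; 0.027 with the replicate block within time points). *Zfp423*, which was outside the naming rule, was not called, with a log2 fold change of 0.37 ± 0.31.

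*Fos* and *Junb*, early response genes whose products pair in AP-1, varied by library. At 4 weeks *Fos* was 66.4 and 10.7 CPM in control and 241 and 66.5 in *Sox17*-*Erg* libraries, so that *Sox17*-*Erg* replicate 2 was only just above control replicate 1. *Junb* was 161 and 76.7 and 439.6 and 236 CPM. In both genes replicate 1 of 4 weeks was the higher one in each arm. At Day 7 *Fos* was 115 and 59.4 against 38.1 and 17.01 CPM (log2 fold change 1.70 ± 0.85 SE, edgeR adjusted p = 0.207) and *Junb* 249.7 and 215 against 113 and 93.4 CPM (log2 fold change 1.19 ± 0.41 SE, edgeR adjusted p = 0.0773). Same-numbered libraries thus moved together, and with the replicate block within time points the adjusted p was 0.000767 for *Fos* and 0.00036 for *Junb*. With the block over all libraries neither was called (edgeR adjusted p = 0.13 and 0.0722).

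Of the 8 other genes, 3 were higher at Day 7. *Aig1* was 16.2 and 16.1 against 6.51 and 7.11 CPM (log2 fold change 1.26 ± 0.17 SE, edgeR adjusted p = 0.00146) and *Nacad* 3.94 and 3.16 against 0.918 and 0.854 CPM (log2 fold change 2.02 ± 0.26 SE, edgeR adjusted p = 0.00119). *Ttc9* in *Sox17*-*Erg* libraries went from 12.8 and 13.5 CPM (Day 7) to 53.7 and 42.5 (4 weeks), against 6.26 and 8.25 in control (log2 fold change 0.70 ± 0.23 SE, edgeR adjusted p = 0.0611 at Day 7; 0.0366 with the block). Outside the naming rule, *Kctd15* was called (log2 fold change 1.81 ± 0.35). *Apobec1*, an RNA-editing cytidine deaminase, *B4galnt1*, a ganglioside synthase, *Chac1*, a glutathione-degrading enzyme, and *9930111J21Rik2* were not, with 0.68 ± 0.22, 0.22 ± 0.51, 1.53 ± 0.49 and 0.77 ± 0.35. Of the 31-base words of *9930111J21Rik2* 69.5% occur in other genes, and of those of *Ppp1r3f* 46.8%, so counts of these genes are uncertain.

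The same fit was read for the pathways around these genes, in lists of which the late-onset genes were a small part. Of the 62 genes, 23 were in any of 30 lists, and over all genes tested 9.48% were higher and 7.93% lower with a median log2 fold change of 0.01. Of 27 arterial genes tested, 17 rose above and 2 fell below control at Day 7 (median log2 fold change 1.41), and 2 of the list, *Slc45a4* and *Aqp1*, were late-onset. Of 40 tested endothelial markers, 17 were higher and 2 lower (median 0.70), with *Vwf* as the late-onset member. *Vwf* was also in the list of venous and lymphatic genes, where 4 were higher and 2 lower of 18 (median -0.55). Of 19 smooth muscle and pericyte markers, 8 were higher and 2 lower (median 1.32), with *Cspg4* and *Myocd* late-onset. None of the 24 tested Notch pathway genes was late-onset, of which 11 were higher and 2 lower (median 0.48). In the VEGF and angiopoietin list 7 of 22 were higher and 4 lower (median -0.42), and among 54 guidance molecules 16 were higher and 8 lower (median -0.23), with *Plxnd1* and *Ntn1* late-onset. The hemostasis and vasoregulation list had 4 higher and 9 lower of 28 (14.3% higher, median -0.66), the matrix list 23 higher and 36 lower of 143 (16.1% higher, median -0.27), with *Lama5*, *Col18a1*, *Vcan* and *Agrn* late-onset, and the list of transcription factors of endothelium and their partners 19 higher and 6 lower of 80 (median 0.13), with *Klf4* and *Tbx3*. Lower calls outnumbered higher ones among fibroblast markers (11 against 2 of 29), mesothelial and epicardial markers (11 against 1 of 20) and adipocyte and lipid genes (11 against 1 of 25), none of which held a late-onset gene. By edgeR no gene was higher in the lists of interferon-stimulated and antigen presentation genes (30 of 57 lower), complement and coagulation genes of stromal cells (12 of 20 lower), cardiomyocyte markers (6 of 19 lower) and leukocyte markers (1 of 26 lower), and none of these lists held a late-onset gene. At an unadjusted p under 0.05, and by DESeq2, 1 leukocyte marker and 0 genes of the other lists were higher. The lists were written with earlier results of these data known.

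The 62 genes differed from the tested genes in the medians of some features that the choice did not use. Their transcripts had a median GC content of 54.1%, against 49.6% over the tested protein-coding genes, with 47 of 62 above that median and 29 above the upper quartile of 54.4%. Their median exon length was 5712 bases against 4490, and their median gene span 37.3 kb against 24.3 kb. They lay on 19 chromosomes, and 15 overlapped an exon of a gene on the other strand, counts that were not read over the tested genes. The library kit keeps strand, but whether counting used it is not given in the sources used here. Mean deviations of the libraries ran from -0.12 to 0.14 on the log2 scale over genes above the upper GC quartile and from -0.11 to 0.12 over genes below the lower one. With GC-adjusted values the rule gave 62 genes, of which 56 were the same, and with a GC offset in the Day 7 fit 34 of the 35 calls were kept. The exception was *Vegfa*. The mean CPM of the 62 genes in *Sox17*-*Erg* samples at 4 weeks ran from 5.35 to 574, with 21 genes above 100 and 13 under 10, and in 2 genes, *Fos* and *Il1rn*, the 2 *Sox17*-*Erg* libraries differed over 2-fold.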

How the data were processed

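Bulk RNAseq was made from *Sox17*-*Erg* and control cultures at Day 3, Day 7 and 4 weeks, from stranded mRNA libraries with paired-end reads. Reads were converted with bcl2fastq 2.20.0, trimmed for high GC content with BBDuk and quantified with Salmon against mm10 (its version and annotation are not given in the sources used here). The authors deposited estimated counts per gene, already whole numbers and not scaled for library size. The authors used DESeq2 for their comparisons.

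Samples were grouped from their titles. Symbols, biotypes, positions and GC content came from GENCODE M21 (GRCm38), which held 35493 of 35727 genes. The late-onset genes and all gene lists were chosen with earlier results of these data known, and the roles after their values were seen. CPM was scaled to the library total. The fit used edgeR 4.0.16 in R 4.3.3 (TMM, filterByExpr at min.count 10 and min.total.count 15, 1 mean per group, quasi-likelihood test, Benjamini-Hochberg adjusted p under 0.05), tested on simulated data beforehand. Genes were named by rank of the 4-week difference, CPM and Day 7 p, by membership of the lists and by nearness to a threshold, 39 in all, and those of the other 23 that are named are stated as such. Alternatives were DESeq2 1.42.0, its size factors, other filters, Day 7 libraries alone, a replicate block, a GC offset (chosen after seeing the data) and leaving out each library. Deviations of same-numbered libraries from their group means correlated by 0.19 at Day 3, 0.30 at Day 7 and 0.17 at 4 weeks across genes, which are not independent replicates, so the numbers were taken to pair the samples within time points. Totals of 19011635 to 41240449 counts limit the precision of genes under about 1 CPM. Each SD of CPM is that between 2 libraries. The SE of a log2 fold change is its absolute value over the square root of the F statistic, in the fit to all 12 libraries. Gene counts do not separate retroviral from endogenous *Sox17* and *Erg*. Promoter sequences are from RefSeq (GRCm38.p6), and *Vwf*, *Slc45a4*, *Atp8b1*, *B4galnt1*, *Scara3*, *Tbx3*, *Cd109*, *Slc6a6*, *Synpo*, *Ntn1* and *Myocd* had no match. The single values of 1 of the 62 genes are not reported here, and it stays in all counts and medians.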

Additional observations from a re-analysis of the deposited data

How the results depend on the processing

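The count of late-onset genes higher at Day 7, 35, was 33 to 48 under the other tools, normalizations, filters and blocks, GC offsets included, 24 at an adjusted p under 0.01 and 32 with a log2 fold change of at least 1, and fell to 22 in a fit of the Day 7 libraries only, where all genes gave 609 higher and 479 lower calls. With the replicate block within time points it was 46, all 35 included, and with the replicate block over all libraries 38, with 2 calls lost (*Vegfa* and *Kif1a*) and 5 gained. The count of lower genes was 1 in place of 0 with DESeq2, with no filter, with the replicate block within time points and with that block and a GC offset. All genes gave 2065 lower calls with the replicate block within time points and 2127 with the GC offset as well. Leaving out 1 library gave 22 to 35 late-onset genes higher, 0 to 1 lower, and 623 to 1371 genes higher and 297 to 1292 lower in all. The lowest counts came without *Sox17*-*Erg* replicate 1 of Day 7, and without control replicate 2 of Day 7 all genes gave 791 higher and 586 lower calls. The median Day 7 log2 fold change stayed between 1.08 and 1.25 in these fits, and the number of late-onset genes between 54 and 80.

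Direction turned in these genes, none of them called in the fit as reported. *Vwf* was called higher in 1 fit (without control replicate 2), and *Il1rn* lower with DESeq2, with no filter, with the block within time points, with that block and the GC offset, and without control replicate 2 of Day 7. *Vwf* moved from -0.11 to 0.23 with the replicate block, 0.53 with the block within time points, 0.55 with the GC offset as well, 2.79 without control replicate 2, 0.061 without *Sox17*-*Erg* replicate 1, and was -1.04 without control replicate 1. Leaving out a Day 7 library gave -0.039 for *Sfrp2* and -0.10 for *Zfp423* (*Sox17*-*Erg* replicate 1), -0.22 for *Cpm* (*Sox17*-*Erg* replicate 2), -0.40 for *B4galnt1* and -0.11 for *Ntn1* (control replicate 2), and -0.40 for *Pcolce2* and 0.20 for *Il1rn* (control replicate 1). The other ends of these leave-out ranges were 0.91 for *Sfrp2*, 1.31 for *B4galnt1*, 0.94 for *Pcolce2*, 1.15 for *Cpm*, 0.66 for *Zfp423*, -4.08 for *Il1rn* and 0.33 for *Ntn1*. Where a value moved, the cause was not tested. The value with the block within time points is printed beside each gene whose call it changed in the report, except *Chac1*, *Htr1b* and *Ppp1r3f*, which were higher with the block at adjusted p = 0.00793, 0.0299 and 0.0211. A fit without 1 library assumes that the remaining library of its group varies like the others.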
